A study of Mus musculus with 4 samples.

Results

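The genes described here are 9 that tissues use when they switch from glucose to fatty acids, as in fasting: Pdk4, Angptl4, Cpt1a, Acot1, Acot2, Plin2, Acadm, Acadl and Ucp2. They were taken by symbol from the 23282 rows of mouse lung mRNA-seq, and each had 1 row. All 9 passed a filter at a mean normalized count of 4, as did 15164 of the rows. The study asked how high-intensity aerobic treadmill exercise and cancer change gene expression, and the lung was 1 of the tissues it sequenced. Male CDF1 mice were divided into 4 groups of 10. E(-)T(-) had neither treatment, E(+)T(-) ran, E(-)T(+) was injected by the tail vein with CT26, a line of mouse colorectal carcinoma, and E(+)T(+) was injected and ran. Below, "untreated", "exercise", "tumor" and "both" stand for these libraries where all 4 are listed. The labels give post-natal day 28 for every animal, an age that the study's methods give for the mice when they were bought, before the intervention. Each group has 1 lung library, and the sources used here do not state whether it came from 1 mouse or a pool. There is therefore no replicate, no difference between 2 libraries has a test of the condition, and the intervals given cover counting error only. CT26 cells reach the lung by this route, so RNA of a tumor lung can come from host and tumor cells. In bulk lung RNA, fewer cells of a type and less RNA per cell cannot be told apart.

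Fatty acids enter mitochondria as acyl-carnitines made by carnitine palmitoyltransferase, and acyl-CoA dehydrogenases then start each round of beta-oxidation. Fasting raises the supply of fatty acids, which bind PPAR nuclear receptors, and many genes of this pathway are known PPAR targets in liver, muscle and heart. In the lung, fatty acids are also the raw material of surfactant, which alveolar type 2 cells make.

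The libraries held between 9354512 and 13368049 reads, with E(-)T(+) the shallowest, so that 3 reads, the limit that a count of 0 allows, stood for a CPM of 0.224 to 0.321. Lung markers were present: all 10 alveolar type 2 markers, all 7 alveolar type 1 markers and all 9 endothelial markers had reads in each library. Their summed levels were low in E(-)T(+), at 29882 normalized counts for type 2 markers against 167955 to 242408 in the other libraries, and at 4216 for endothelial markers against 31392 to 41480. The summed level of 12 cell division genes was 12261 in E(-)T(+) and 3850 in E(+)T(+), against 450 and 831 in E(-)T(-) and E(+)T(-). Neutrophil markers, 9 of 10 listed genes, summed to 210383 in E(+)T(+) against 4075 to 12477 elsewhere, and erythroid markers, 8 of 10, to 19574 against 502 to 4460. The libraries thus differ in markers of several cell types, and the part of this in the values below was not tested unless a measurement is given beside a result.

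The upstream sequences of the genes are shown first, because PPAR is the receptor they are known to share. PPAR binds, with RXR, to a pair of half-sites AGGTCA 1 base apart. The 250 bases before the start of 8 of the 9 genes were read from RefSeq on GRCm38.p6, and Angptl4 had no entry. The half-site AGGTCA or its reverse TGACCT was in 3 of the 8, against 14.0% of 32851 mouse promoters of this length. The half-site pair, AGGTCANAGGTCA on either strand, was in 0 of the 8, against 0.0335% of all promoters. The 3 with a half-site are printed 5′ to 3′ on the strand of the gene, with the half-site in capitals.
Cpt1a: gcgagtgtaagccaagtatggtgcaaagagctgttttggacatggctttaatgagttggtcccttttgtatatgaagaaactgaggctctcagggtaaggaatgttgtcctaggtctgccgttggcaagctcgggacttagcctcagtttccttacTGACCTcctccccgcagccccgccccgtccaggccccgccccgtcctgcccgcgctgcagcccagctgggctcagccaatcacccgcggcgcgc
Plin2: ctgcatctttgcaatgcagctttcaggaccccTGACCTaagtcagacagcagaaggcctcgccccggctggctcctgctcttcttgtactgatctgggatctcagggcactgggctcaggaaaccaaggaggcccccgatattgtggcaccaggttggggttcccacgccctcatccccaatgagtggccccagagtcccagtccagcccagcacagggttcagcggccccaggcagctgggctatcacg
Acadm: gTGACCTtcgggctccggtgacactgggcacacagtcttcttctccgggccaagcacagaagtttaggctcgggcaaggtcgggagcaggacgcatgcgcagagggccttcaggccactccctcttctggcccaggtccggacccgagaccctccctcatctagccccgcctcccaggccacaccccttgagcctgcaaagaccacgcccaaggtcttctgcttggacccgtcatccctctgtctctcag
The Cpt1a sequence is chr19:3323051-3323300 on the plus strand, and its half-site begins 94 bases before the start. That RefSeq start lies 967 bases inside the gene as GENCODE places it, so the printed window is within the GENCODE gene; for the other 4 sequences printed the starts differ by at most 12 bases. The Plin2 sequence is chr4:86670060-86670309 on the minus strand, with the half-site 218 bases before the start, and the Acadm sequence is chr3:153944644-153944893 on the minus strand, with it 249 bases before. A match of letters is a description of these windows and not a binding site.

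Acot1 and Acot2 are neighbours on chromosome 12 and encode related acyl-CoA thioesterases, which makes their upstream sequences of interest beside their different levels. The longest run that both windows share is 9 bases, in capitals.
Acot1: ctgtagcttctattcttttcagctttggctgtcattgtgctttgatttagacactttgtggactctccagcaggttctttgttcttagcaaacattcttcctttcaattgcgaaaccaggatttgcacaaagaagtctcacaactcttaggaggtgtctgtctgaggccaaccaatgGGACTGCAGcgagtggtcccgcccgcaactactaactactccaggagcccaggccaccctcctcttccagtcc
Acot2: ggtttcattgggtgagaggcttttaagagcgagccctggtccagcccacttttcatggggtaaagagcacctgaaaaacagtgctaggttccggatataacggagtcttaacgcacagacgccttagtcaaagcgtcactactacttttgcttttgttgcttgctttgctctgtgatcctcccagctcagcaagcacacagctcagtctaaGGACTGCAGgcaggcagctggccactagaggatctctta
These are chr12:84009252-84009501 and chr12:83987611-83987860, both on the plus strand, and the shared run begins 73 and 39 bases before the respective starts.

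Across the 9 genes, the lungs without tumor held more of most of these transcripts than the lungs with tumor. The tumor comparison had 7 of 9 lower in mice that did not run and 8 of 9 lower in mice that ran, with medians of -0.58 and -1.19 on the log2 scale, against -0.03 and 0.00 over all filtered rows. Past 2-fold, the limit used for the counts, 2 were lower and 0 higher without exercise, where 25.7% of the filtered rows were lower and 20.6% higher. With exercise 5 were lower and 1 higher, where 13.0% of rows were lower and 14.9% higher. Pdk4 is in both lower counts, and it passed the filter only through its reads in E(+)T(-). That library is the one compared against with exercise, so nothing is read from Pdk4 there. The 8 of 9 and the median of -1.19 also include Pdk4, so that median is not read as a result. Of the other genes with exercise, Acot1 was at -1.66, Acadm and Acot2 at -1.35 and Angptl4 at -1.19. Plin2 was at -0.33, Cpt1a at -0.32, Acadl at -0.08 and Ucp2 at 1.47. At a mean of at least 100, which leaves Pdk4 out, 1 and 5 genes were past 2-fold in either direction. Without exercise this was Acot1, lower. With exercise Acot1, Acot2, Acadm and Angptl4 were lower and Ucp2 higher. At that mean 3601 and 1686 rows were past 2-fold in the same comparisons. Their share of the rows at that mean is not given here, so little is read from these counts. Exercise without tumor put 1 of the 9 past 2-fold, higher, against 5.28% of rows higher and 4.7% lower, with a median of -0.06 for the 9 and 0 for all rows. That gene was again Pdk4, in the library through which it passed the filter, so nothing is read from this count. At a mean of at least 100 the count was 0. Exercise with tumor put 1 higher and 1 lower, against 24.3% and 17.7% of rows, with medians of -0.44 and 0.01. With library totals alone as the scale, 4 of the 9 were lower and 1 higher for exercise with tumor (2482 rows higher, 5370 lower), and 5 lower and 1 higher for tumor with exercise (1440 rows higher, 3663 lower), where the deposited scale gave 3685 against 2686 and 2259 against 1964 rows. Each library enters 2 of the 4 comparisons, so these counts are not independent of each other. The range of log2 values over the 4 libraries had a median of 1.35 over the 9 genes and 1.38 over all filtered rows. The 2 sets were not matched for level, so no more is read from these medians.

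**Figure D1:**
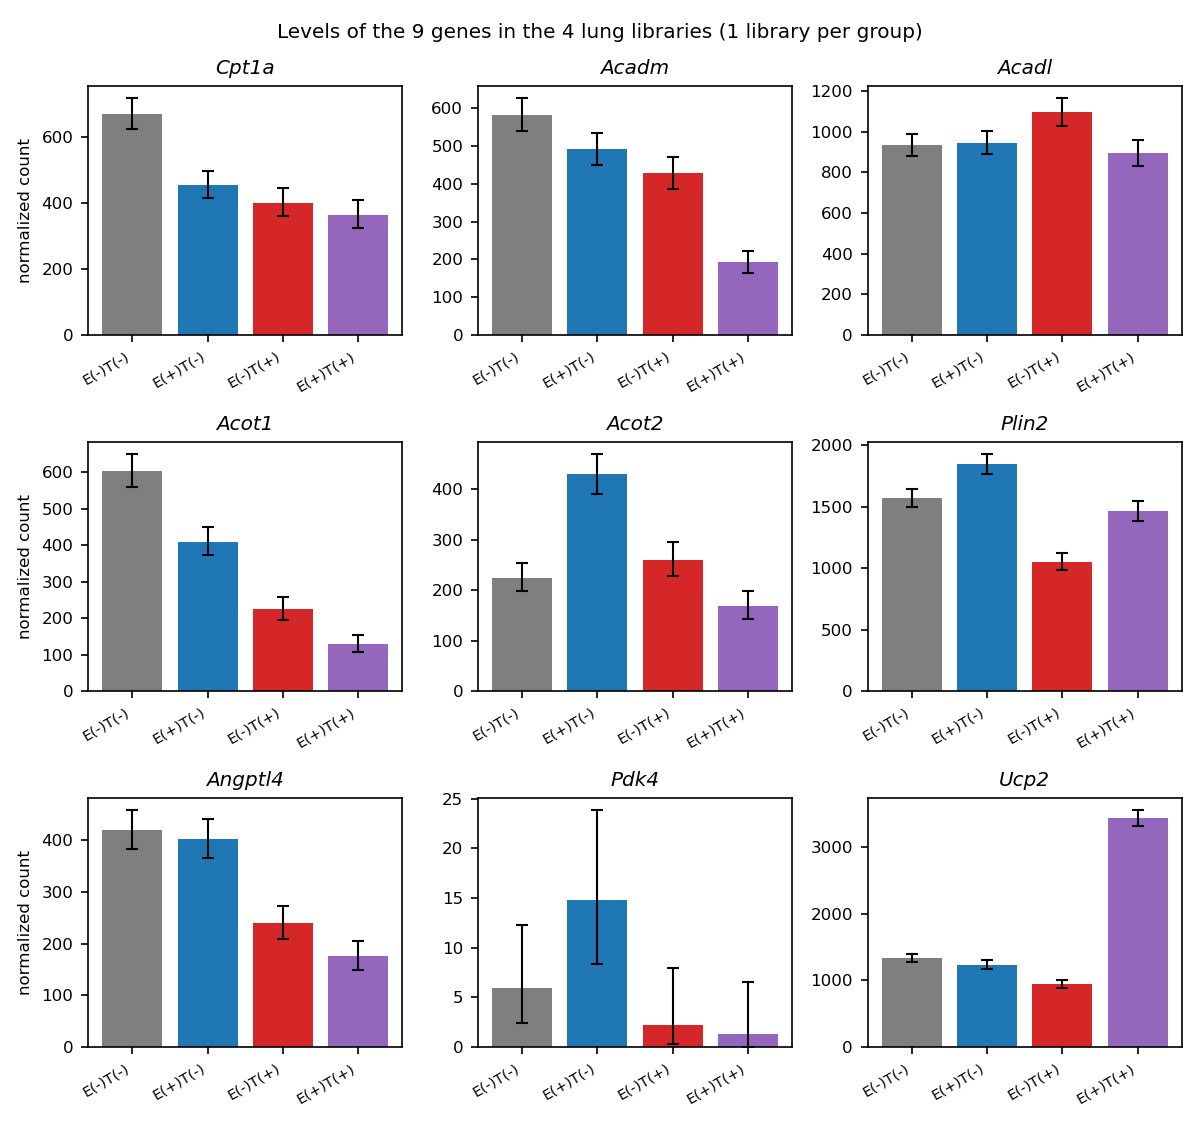
Levels of the 9 genes as normalized counts (vertical axis, linear from 0, a separate scale for each gene) in the 4 lung libraries, 1 bar per library, with error bars for the exact 95% Poisson interval of the reads. Acot1, Cpt1a, Acadm and Angptl4 are highest in E(-)T(-) and lowest in E(+)T(+), and Ucp2 is highest in E(+)T(+) at 3431 normalized counts.

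Cpt1a encodes the carnitine palmitoyltransferase of the outer mitochondrial membrane that controls entry of long-chain fatty acids, and lies at chr19:3322334-3385733 on the plus strand of GRCm38, the assembly of mm10. Its log2 level, log2 of the normalized count plus 1, was 9.39 in E(-)T(-), 8.83 with exercise, 8.65 with tumor and 8.52 with both, from 788, 495, 366 and 312 reads. The untreated lung stood above the other 3 libraries, among which no step between neighbours in the order was beyond counting error. Exercise without tumor gave a difference of -0.56 (95% interval of the read ratio -0.72 to -0.39), and tumor without exercise one of -0.74 (-0.92 to -0.56). With tumor, the exercise difference was -0.14 (-0.36 to 0.09), an interval that spans 0, though with library totals alone it was -0.74 (-0.97 to -0.52), and with exercise the tumor difference was -0.32 (-0.53 to -0.11). No Cpt1a comparison reached 2-fold.

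Acadm and Acadl encode the medium-chain and long-chain acyl-CoA dehydrogenases. Acadm, at chr3:153922357-153944632 on the minus strand, had log2 levels of 9.19 in E(-)T(-), 8.94 with exercise, 8.74 with tumor and 7.59 with both, from 685, 535, 390 and 164 reads. The library with both treatments was well below the other 3. Acadm was lower past 2-fold in E(+)T(+) both against E(-)T(+), at -1.15 (-1.43 to -0.89), and against E(+)T(-), at -1.35 (-1.62 to -1.10). Either treatment alone gave less, -0.24 (-0.41 to -0.08) for exercise and -0.45 (-0.63 to -0.26) for tumor.

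Acadl, at chr1:66830839-66863277 on the minus strand, had the narrowest range of the 9 on the deposited scale, with log2 levels of 9.87, 9.89, 10.10 and 9.81 in the order untreated, exercise, tumor and both, from 1099, 1029, 1001 and 766 reads. Its range was 0.29, against 1.60 for Acadm. E(-)T(+) was the high library, where Acadl was 0.23 above E(-)T(-) (0.11 to 0.36) and E(+)T(+) was 0.29 below it (difference -0.29, -0.43 to -0.16). Among the other 3 libraries, no step in the order was beyond counting error. These small differences depend on the scale: the tumor difference without exercise was 0.08 (-0.04 to 0.21) with totals that leave out hemoglobin genes and the ribosomal precursor, and with library totals alone that with exercise was -0.49 (-0.63 to -0.35) and the exercise difference with tumor -0.90. So 2 dehydrogenases of the same step had different patterns in these libraries, and Acadl stayed within 2-fold throughout.

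Acot1 and Acot2 release free fatty acid from acyl-CoA, Acot1 in the cytosol and Acot2 in mitochondria. Acot1, at chr12:84009490-84018371, had log2 levels of 9.24 in E(-)T(-), 8.68 with exercise, 7.82 with tumor and 7.02 with both, from 712, 446, 205 and 110 reads. Each library differed from the next in that order beyond counting error. Tumor gave a difference of -1.43 (-1.66 to -1.20) without exercise and -1.66 (-1.99 to -1.37) with it, both past 2-fold. Exercise gave -0.56 (-0.74 to -0.39) without tumor and -0.80 (-1.15 to -0.46) with it. With library totals alone the latter was -1.40 (-1.76 to -1.07), past 2-fold. The library with both treatments differed from the untreated one by -2.23 (-2.54 to -1.94), among the 9 genes the largest such difference.

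Acot2, at chr12:83987861-83993873, followed another order, with log2 levels of 7.82 in E(-)T(-), 8.75 with exercise, 8.03 with tumor and 7.41 with both, from 265, 468, 237 and 144 reads. It was highest in the running mouse lung without tumor, while E(-)T(+) and E(-)T(-) did not differ beyond counting error. Exercise gave 0.93 (0.71 to 1.16) without tumor and -0.62 (-0.93 to -0.32) with it. With library totals alone the latter was -1.23 (-1.54 to -0.93), past 2-fold. Tumor gave 0.21 (-0.05 to 0.46) without exercise and -1.35 (-1.63 to -1.08) with it.

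Between the untreated and the exercise library, the share of each gene in the pair differed while the sum was nearly equal. Acot1 reads per Acot2 read were 2.69 (exact 95% interval 2.33 to 3.11) in E(-)T(-), 0.953 (0.835 to 1.09) in E(+)T(-), 0.865 (0.714 to 1.05) in E(-)T(+) and 0.764 (0.590 to 0.986) in E(+)T(+). The untreated lung stood apart and the intervals of the other 3 overlapped. The summed reads of the pair were 977, 914, 442 and 254 in the same order of libraries, and between E(-)T(-) and E(+)T(-) the sum differed by 0.02 on the log2 scale (-0.12 to 0.15). Acot1 was lower and Acot2 higher in that comparison. With tumor the sum was lower, at -0.78 (-0.94 to -0.61) without exercise and -1.50 (-1.71 to -1.30) with it. Reads of near-identical genes can be shared between them, and the longest coding transcripts of the pair were 82.6% identical. Over their last 300 bases, where a 3′ library reads, identity was 56.2%, and no stretch of 75 bases, the read length, in the last 500 bases of these transcripts was common to both. A shorter Acot1 transcript shared 40 of its 426 such stretches with Acot2. How the authors' counting treated such reads is not given in the sources used here.

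**Figure D2:**
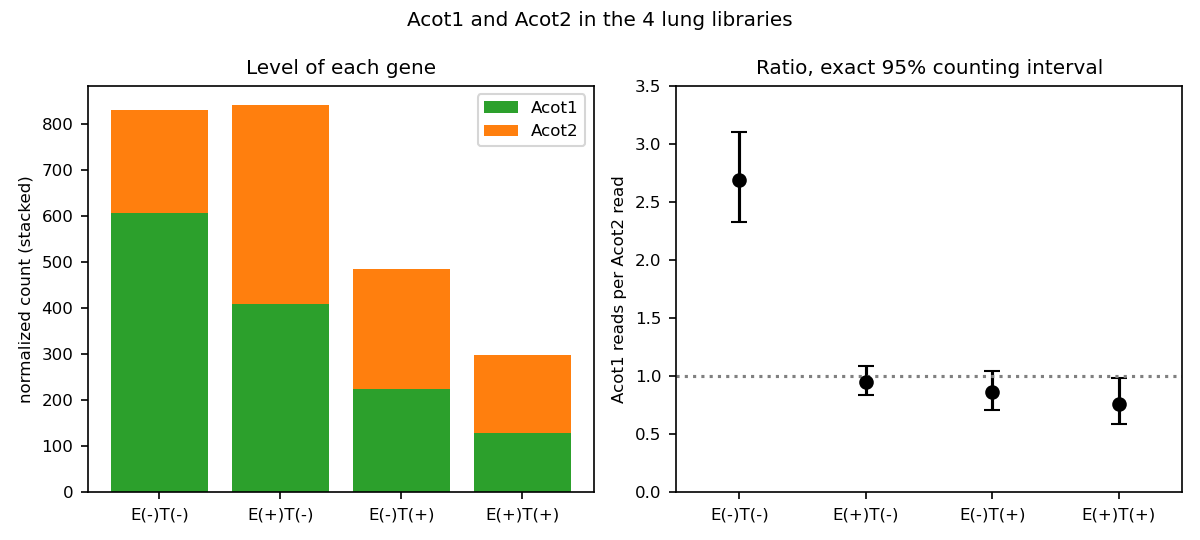
Left, normalized counts of Acot1 and Acot2 stacked in each of the 4 lung libraries. Right, Acot1 reads per Acot2 read with the exact 95% counting interval, where E(-)T(-) is at 2.69 and the other 3 libraries lie between 0.764 and 0.953.

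Plin2 encodes perilipin 2, a coat protein of lipid droplets, and Angptl4 a secreted inhibitor of lipoprotein lipase. Plin2, at chr4:86648386-86670060 on the minus strand, had log2 levels of 10.62 in E(-)T(-), 10.85 with exercise, 10.04 with tumor and 10.52 with both, from 1848, 2012, 961 and 1254 reads. On the deposited scale the library of running mice was higher with either tumor state, by 0.24 (0.14 to 0.33) without tumor and 0.48 (0.36 to 0.60) with it. No comparison reached 2-fold. With libraries scaled by their read totals alone the difference with tumor turned to -0.13 (-0.25 to -0.0084), so its direction depends on the scale. Tumor gave -0.58 (-0.69 to -0.46) without exercise and -0.33 (-0.44 to -0.23) with it. Plin2 is also abundant in alveolar macrophages, whose markers, 9 of 10 listed genes, summed to 8214, 7720, 3710 and 14168 normalized counts in the order untreated, exercise, tumor and both. The last sum was mostly Chil3, and without Chil3 the sums were 6918, 5924, 2371 and 4311. In E(+)T(+) over E(+)T(-), 5 of the 9 markers were lower. In E(+)T(+) over E(-)T(+), 7 were higher and 1 lower past 2-fold, against 24.3% and 17.7% of all filtered rows. In E(-)T(+) over E(-)T(-), 1 was higher and 6 lower past 2-fold, against 20.6% and 25.7%. Their part in the Plin2 result was not tested.

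Angptl4, at chr17:33773750-33781830 on the minus strand, had log2 levels of 8.72 in E(-)T(-), 8.65 with exercise, 7.91 with tumor and 7.46 with both, from 494, 437, 218 and 150 reads. Both libraries without tumor stood above both with it. Tumor gave -0.81 (-1.05 to -0.58) without exercise and -1.19 (-1.47 to -0.92) with it, the latter past 2-fold. Exercise gave -0.06 (-0.25 to 0.12) without tumor, an interval that spans 0, and -0.44 (-0.76 to -0.14) with it. With library totals alone the exercise difference with tumor was -1.05 (-1.36 to -0.75), past 2-fold. Fat cells are a known source of Angptl4. Of the adipocyte markers, Adipoq had 327, 113, 77 and 48 reads and Plin1 had 35, 18, 3 and 2, in the order untreated, exercise, tumor and both. Both were highest in the untreated lung, and 2 of the 9 adipocyte markers had 0 reads in both tumor libraries. The summed adipocyte markers were 4077, 1736, 6840 and 1126 normalized counts, the value in E(-)T(+) being mostly Fabp4, which other lung cells also express. The part of adipocyte RNA in the differences of Angptl4 and the other genes was not tested.

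Pdk4 encodes a kinase that switches off pyruvate dehydrogenase and so spares glucose. It lies at chr6:5483351-5496309 on the minus strand and was barely detected in these lungs, with 7 reads in E(-)T(-), 16 with exercise, 2 with tumor and 1 with both. The log2 levels were 2.79, 3.98, 1.70 and 1.18. The libraries without tumor held more reads than those with it, but no neighbours in that order differed beyond counting error. The exercise difference without tumor, 1.19 (-0.06 to 2.83), was the 1 past 2-fold in that comparison and its interval spans 0. The tumor difference with exercise, -2.80 (-9.04 to -0.97), rested on 16 reads against 1, and that without exercise, -1.10 (-4.74 to 0.95), on 7 against 2. The exercise difference with tumor was -0.52 (-6.79 to 3.36). Pdk4 is strongly expressed in heart and skeletal muscle, and here the cardiac muscle markers summed to 1849, 1947, 666 and 1518 normalized counts in the order untreated, exercise, tumor and both. The skeletal muscle markers summed to 163, 99, 164 and 303 in the same order. The part of either in so few Pdk4 reads was not tested.

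Ucp2 encodes a mitochondrial carrier of the uncoupling protein family that fatty acids induce and that blood and immune cells express. It lies at chr7:100493337-100502020 on the plus strand and had log2 levels of 10.38 in E(-)T(-), 10.27 with exercise, 9.89 with tumor and 11.75 with both, from 1569, 1344, 864 and 2935 reads. E(+)T(+) was far above the other 3, which lay within 0.49 of each other. Exercise gave -0.11 (-0.22 to -0.0049) without tumor and 1.86 (1.75 to 1.97) with it, and tumor gave -0.49 (-0.62 to -0.37) without exercise and 1.47 (1.38 to 1.57) with it. Ucp2 was thus the 1 gene of the 9 higher past 2-fold in each comparison that holds E(+)T(+). Of the neutrophil markers 8 of 9 were highest in that library, the exception being Ltf, highest in E(-)T(+), and so were all 8 erythroid markers: S100a8 had 1608, 4680, 3567 and 77269 reads and Alas2 had 4733, 4574, 414 and 13536 in the order untreated, exercise, tumor and both. Their part in the Ucp2 difference was not tested. Ucp2 shares 305 exon bases with Dnajb13 on the opposite strand. Dnajb13 had 18, 40, 2 and 37 reads in the same order, against 2935 Ucp2 reads in E(+)T(+), and whether the counting used strand is not given in the sources used here.

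**Figure D3:**
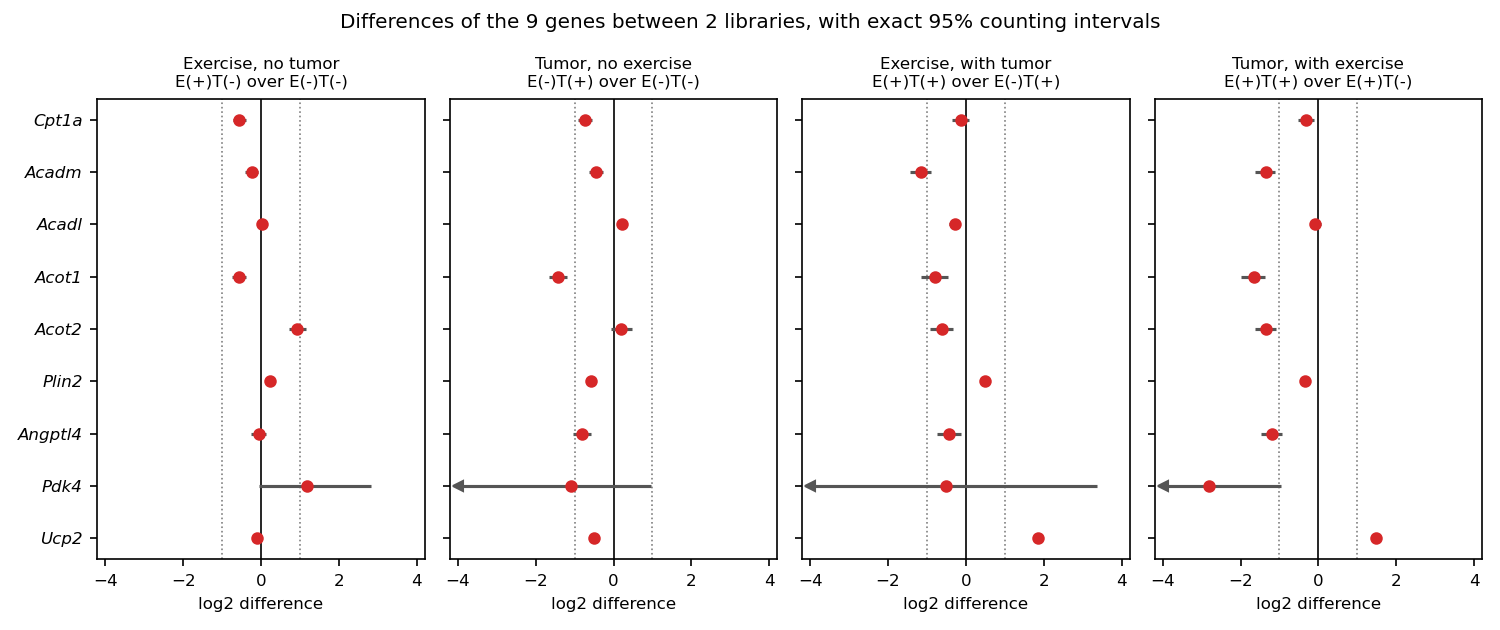
Differences of log2 values between 2 libraries for the 9 genes (red points) in the 4 comparisons, with exact 95% counting intervals of the read ratio (grey lines, hidden by the point where short; arrowheads mark intervals that go beyond the axis) and dotted lines at 2-fold. In E(+)T(+) over E(+)T(-), 5 genes lie past 2-fold on the lower side, among them Pdk4 from 1 and 16 reads, and Ucp2 on the higher side at 1.47.

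For several of the genes the exercise difference was unlike with and without tumor, which is given as values without a test. Exercise with tumor minus exercise without tumor was 1.97 for Ucp2, -1.71 for Pdk4, -1.55 for Acot2 and -0.91 for Acadm. The Pdk4 value rests on 16 against 7 and 1 against 2 reads, and both of its intervals span 0. For Acot2 and Ucp2 the 2 exercise differences had opposite signs and both intervals excluded 0. For Ucp2 without tumor this was narrow, and with median-of-ratios size factors that interval was -0.19 to 0.02. The other 5 genes lay between -0.38 for Angptl4 and 0.42 for Cpt1a.

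A fit with both treatments and no interaction, by limma over the 15164 filtered rows, has 2 libraries for each level and 1 residual degree of freedom. The 2 libraries of a level differ in the other treatment and are not replicates. The residual is the interaction of the treatments, taken as the spread, so the p-values do not measure spread between animals. A gene with unlike exercise differences in the 2 tumor states, such as Ucp2 or Acot2, has a large residual in this fit. It called 0 rows for exercise (0.0% of rows; 753 at an unadjusted p under 0.05) and 495 for tumor (3.26%; 286 higher and 209 lower, or 349 higher and 478 lower with library totals) at an adjusted p under 0.05. The tumor count was 310 with median-of-ratios factors and 0 without the trend of the variance with level (2172 at an unadjusted p under 0.05). None of the 9 genes was called for either. The lowest adjusted p was that of Acot1 for tumor, with an effect of -1.54 (SE 0.49) and a limma adjusted p of 0.096. It was 0.0417 when all rows with reads were tested. Angptl4 followed with an effect of -1.0 and a limma adjusted p of 0.30, then Acadm with -0.90 and 0.347. For exercise each of the 9 had a limma adjusted p of 0.999. A p above the limit in a fit with so few libraries does not show that the levels were equal.

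Other genes of the pathway, 128 in 10 lists with 120 past the filter, set the 9 in context. Exercise without tumor put 2 higher and 7 lower past 2-fold (1.67% and 5.83% of the 120, against 5.28% and 4.7% of all filtered rows) and tumor without exercise 14 higher and 36 lower (11.7% and 30%, against 20.6% and 25.7%). Exercise with tumor put 31 higher and 14 lower (25.8% and 11.7%, against 24.3% and 17.7%), and tumor with exercise 10 and 10 (8.33% each, against 14.9% and 13.0%). The medians of the 120 were -0.07, -0.35, 0.25 and -0.08 in the same order. The counts past 2-fold include genes that passed the filter only through the library where they were highest. Among them are Acot4 and Acot6 through E(+)T(+), Rxrg through E(+)T(-) and Ucp1 through E(-)T(-), so little is read from the counts. In the comparisons with E(+)T(+), the 9 genes had the lower medians, -0.44 and -1.19. Both medians include Pdk4, so nothing is read from this difference, which was not tested.

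Among the enzymes of mitochondrial beta-oxidation, 17 besides Acadm and Acadl, the medians stayed between -0.18 and 0.08 in the 4 comparisons. Etfdh, which passes electrons from the dehydrogenases to the respiratory chain, was lower in E(+)T(+) than in E(-)T(+), at -1.12, and so was Acad9, a dehydrogenase of complex I assembly, at -1.02. They were the 2 of the 17 lower past 2-fold there, against 17.7% of all rows, and 10 of the 17 were higher, Acad12 by the most at 3.42, from 1 and 19 reads. Of the genes of carnitine and acyl-CoA entry, 13 past the filter, 4 were lower past 2-fold with tumor without exercise, near the 25.7% of all rows, among them Acsl1, which activates long-chain fatty acids, at -1.47. Acsl1 was higher by 1.62 in E(+)T(+) over E(-)T(+), while Cpt1a, the next step, was at -0.14.

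In mice that did not run, where 25.7% of all filtered rows were lower past 2-fold with tumor, peroxisomal oxidation had 7 of 15 lower, with catalase, Cat, at -3.26. Lipid droplet and lipolysis genes had 8 of 17 lower, with Cidec, a droplet fusion protein, at -3.84 and G0s2, an inhibitor of lipolysis, at -3.78, while Plin2 was at -0.58. In E(+)T(+) over E(-)T(+) these 3 genes were higher, with Cat at 2.72, Cidec at 2.32 and G0s2 at 2.87. Acot1, Acot2, Acadm and Angptl4 were lower there. Lipid uptake and binding split, with Cd36, a fatty acid receptor, at -3.65 in tumor without exercise and 2.86 in exercise with tumor, and Fabp4 at 1.56 and -3.73. Alveolar type 2 and endothelial markers moved between the same libraries, Sftpc by -3.24 and 2.72 and Pecam1 by -2.73 and 2.96, and their part in these list values was not tested.

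Of the PPAR receptors and partners, 13 past the filter, 2 were higher and 4 lower past 2-fold with tumor without exercise, against 20.6% and 25.7% of all rows, and 2 higher and 3 lower with exercise, against 14.9% and 13.0%. These counts include Rxrg, with 2, 19, 0 and 0 reads in the order untreated, exercise, tumor and both, and Foxo3, with 0, 9, 11 and 20, so little is read from them. Esrra, a nuclear receptor that partners with the coactivators, was higher without exercise, at 1.17, and Ppard, the third PPAR, was at -0.49 without exercise and -0.35 with it. Ppara, the PPAR of fasting, had 209 reads in the untreated and 58 in the tumor library, a difference of -1.47, and the tumor difference with exercise was -1.19. Pparg, the PPAR of fat cells and alveolar macrophages, had 108, 75, 39 and 5 reads in the order untreated, exercise, tumor and both, with a tumor difference of -1.09 without exercise and -3.33 with it. Ppargc1b, a coactivator, was at -2.0 in exercise without tumor, from 94 and 21 reads, and at 1.69 in tumor with exercise, from 21 and 55 reads. Of the 12 genes of pyruvate dehydrogenase control besides Pdk4, 4 were higher and 1 lower past 2-fold in tumor without exercise, against 20.6% and 25.7% of all rows. Of the kinases among them, Pdk1 was higher with tumor without exercise by 1.10 and lower, at -1.49, in E(+)T(+) over E(-)T(+), while in the former Pdk3 was at 1.05 and Pdk2 at -1.47. Pdk1 had 299, 161, 498 and 165 reads and Pdk2 had 338, 257, 94 and 137, in the same order of libraries.

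Of the thioesterases besides Acot1 and Acot2, 8 of 11 passed the filter. Of these, Acot4 and Acot6 passed only through their reads in E(+)T(+), so no count of the list is read here. Acot11 was lower past 2-fold with tumor in mice that did not run, at -3.42 from 109 and 7 reads, as was Acot1. Acot9, a mitochondrial member, was at 1.22 in tumor without exercise and 1.07 with it. Of the uncoupling proteins besides Ucp2, 4 of 5 passed. Ucp1, the protein of brown fat, had 12, 1, 1 and 5 reads and Ucp3, that of muscle, 28, 30, 1 and 4 in the order untreated, exercise, tumor and both. Neither was highest in E(+)T(+), the library in which Ucp2 was.

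**Figure D4:**
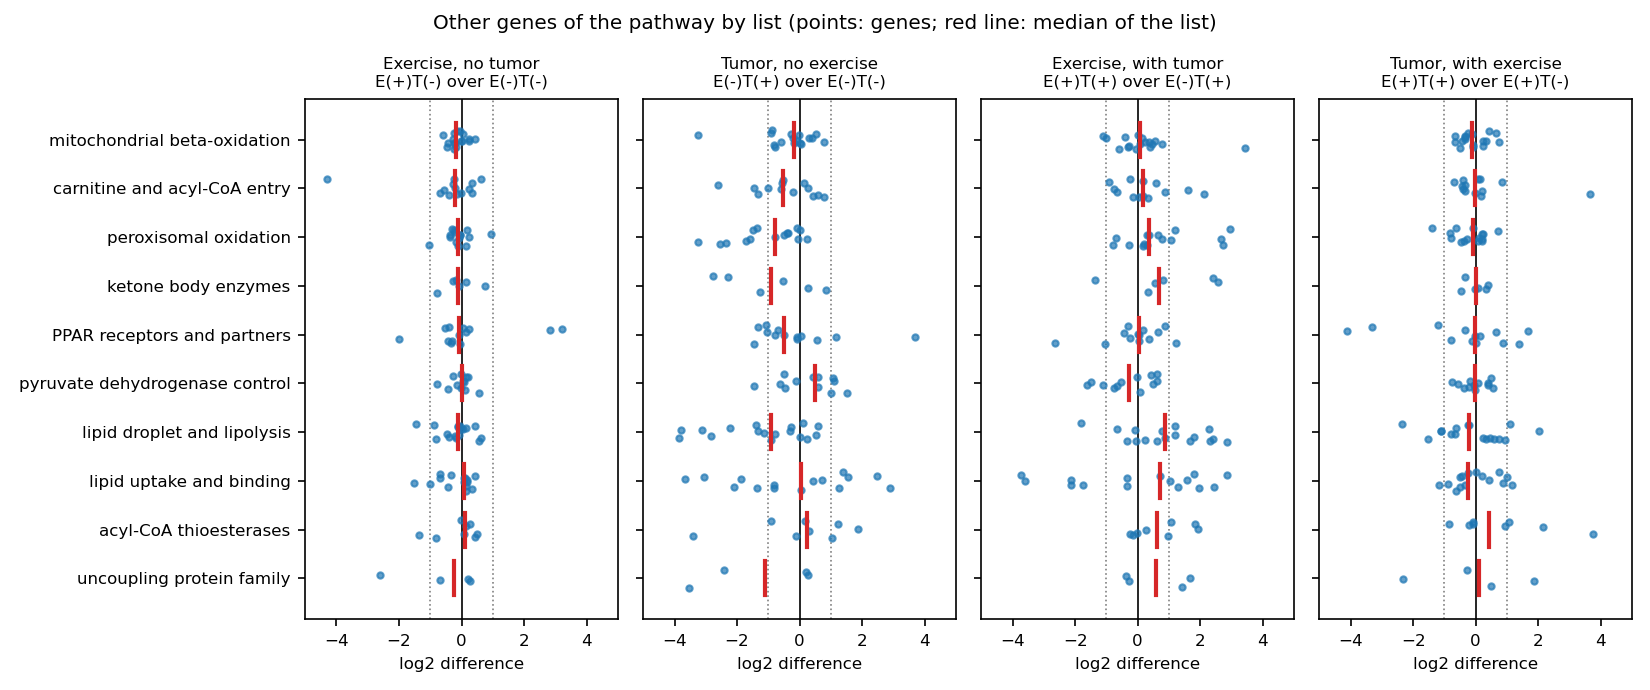
Differences of log2 values for 120 other genes of fatty acid use (points, jittered vertically) in 10 lists and the 4 comparisons, with the median of each list as a red line and dotted lines at 2-fold. Lipid droplet and lipolysis genes have a median of -0.91 in E(-)T(+) over E(-)T(-) and 0.89 in E(+)T(+) over E(-)T(+).

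Pdk4 and Acot1 had the widest ranges of the 9, and rows with like patterns were sought among 11216 with a mean normalized count of at least 50, by the largest difference of centred log2 values over the 4 libraries. With 1 to 16 reads and intervals several log2 units wide, Pdk4 has no pattern precise enough to match, so no row is named for it. For Acot1, 16 rows lay within 0.25, led by Zfp160 at 0.15, Cd48 at 0.17, Yes1 at 0.18, C330018D20Rik at 0.18 and Adgra2 at 0.19. None of these 5 is in the pathway lists. With 4 libraries, such likeness is a description of these libraries.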

How the data were processed

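Lung RNA of 4 mouse groups was sequenced, 1 library each, with a QuantSeq 3′ kit, 75 bases single-end. The authors aligned reads with Bowtie2, counted with bedtools and normalized by the quantile method of edgeR. The processing notes name mm10, and versions and annotation are not given in the sources used here. The deposited values are log2 of a normalized count plus 1, to 3 decimals. From them whole reads were recovered by inverting the quantile adjustment with a fitted dispersion of 0.372; 100% of the values were rebuilt within 0.001, and 92.3% of those above 0 resolved to 1 read. The procedure was tested on simulated data.

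Differences are of deposited log2 values. Each has the Clopper-Pearson 95% interval of the read ratio, scaled by effective library size, and levels have a Poisson interval; these and the floor of 3 reads cover counting error only, and reads without molecular identifiers are not independent molecules. Rows with a mean normalized count under 4 were left out of counts. limma 3.58.1 (R 4.3.3) fitted exercise plus tumor with Benjamini-Hochberg adjustment, and Python 3.11.15, numpy 2.4.6, scipy 1.17.1 and pandas 2.3.3 did the rest. The pathway and marker lists and the genes were chosen with earlier results of these data known. Named pathway genes are those past 2-fold with a mean of at least 50, at most 3 per list and comparison; genes named beside them for reads (Ucp1, Ucp3, Acot4, Acot6, Acot11, Acad12, Ppard, Rxrg, Foxo3, Pdk3, Pdk1 in all libraries) were chosen after their values were seen. Gene positions are from GENCODE M21. Other scalings, pseudocounts and filters were tried. One of the named pathway genes is not reported here.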

Additional observations from a re-analysis of the deposited data

Results flagged for a closer look

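Acot2 and Ucp2 had exercise differences of opposite sign in the 2 tumor states, each beyond counting error on the deposited scale, and the difference between the effects was not tested since each group has 1 library. For Acot2, exercise with tumor minus exercise without tumor was -1.55 on the log2 scale, from 0.93 without tumor (265 against 468 reads) to -0.62 with it (237 against 144 reads). For Ucp2 it was 1.97, from -0.11 (1569 against 1344 reads, an interval of -0.22 to -0.0049 that was -0.19 to 0.02 with median-of-ratios size factors) to 1.86 (864 against 2935 reads). With library totals alone, the exercise difference with tumor was -1.23 for Acot2 and 1.25 for Ucp2.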

How the results depend on the processing

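Of the 36 differences of the 9 genes, all kept their values within counting error with median-of-ratios size factors and with a pseudocount of 4. With library totals alone 20 did, 15 moved and 1 reversed, Plin2 for exercise with tumor, at -0.13; the median of all rows then stood at -0.59 in that comparison and -0.41 for tumor with exercise, which is a shift of the scale itself, and 5 genes passed 2-fold for exercise with tumor in place of 2. Whether a counting interval spanned 0 changed with the scaling for 5 of the 36: Acadl in both tumor comparisons, Acot2 for tumor without exercise, Cpt1a for exercise with tumor and Ucp2 for exercise without tumor. Totals without hemoglobin genes and the ribosomal precursor moved 5. With a pseudocount of 4, Pdk4 was no longer past 2-fold for exercise without tumor or tumor without exercise, which left 0 and 1 genes, but stayed so for tumor with exercise, at -1.84. A mean of at least 100 leaves Pdk4 out, with 0 and 1 genes in the same comparisons and 5 in place of 6 for tumor with exercise. Rows past 2-fold for exercise without tumor were 1513, 2606 with no filter and 200 at a mean of at least 100, where the other comparisons gave 3601, 3171 and 1686 in place of 7011, 6371 and 4223. The limma calls for tumor, 495, were 827 with totals, 310 with median-of-ratios factors, 1284 with no filter, 0 without a trend and 884 with a pseudocount of 4, and those for exercise, 0, were 7 with totals, 58 with no filter and 5 with a pseudocount of 4; the cause was not tested. Of the 9 genes, Acot1 for tumor was called with no filter (limma adjusted p 0.0417, effect -1.54). Leaving out a library leaves no residual degree of freedom and was not run. No paired analysis was possible because each group has 1 library. The depth limits Pdk4 most, with 1 to 16 reads.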
